A study of Mus musculus with 8 samples.

Results

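The genes described here carry glucose from its uptake to the end of the acid cycle in the mouse heart: glucose transporters, the enzymes of glycolysis, the entry of pyruvate into mitochondria, pyruvate dehydrogenase with its regulators, and the enzymes of the tricarboxylic acid cycle. The list holds 45 genes, and its members were taken as the probe sets whose gene symbol in the platform annotation is on the list. Of the 45, 40 had a probe set that named that gene alone, among 18193 genes measured in all: 17 of glycolysis, 10 of pyruvate entry and 13 of the acid cycle. Gapdh was read on array control probe sets and on probe sets that also name other genes, and is described apart. Gpi1, Pfkfb1, Eno1 and Mpc2 were not analysed here.

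Messenger RNA levels came from 8 hearts of female mice, 1 Affymetrix mouse array per heart and 2 hearts in each of 4 groups: 10-week-old knock-out (KO), 10-week-old wild-type (WT), 4-week-old KO and 4-week-old WT. The KO mice carry a conditional gene deletion under MCK (muscle creatine kinase), whose promoter is active in heart and skeletal muscle. The mice of an age were littermates, and in any comparison of 10 with 4 weeks, age, litter and processing day cannot be told apart. The labels give separate mice for the arrays of a group, and with 2 per group the number of arrays limits the precision.

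Glycolysis splits glucose in the cytosol into pyruvate, and hexokinase and phosphofructokinase are its first committed and most regulated steps. Several steps have isoforms made in different tissues: in adult striated muscle the forms encoded by Slc2a4, Hk2, Pfkm, Pgam2 and Eno3 prevail, while Slc2a1, Hk1, Pfkp and Pgam1 are more widely expressed. Pyruvate then enters mitochondria, where pyruvate dehydrogenase makes acetyl-CoA for the acid cycle, and the adult heart feeds this cycle mostly with fatty acids.

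The values are log2 of the deposited intensities, for which the arrays' medians lay between 34.3 and 37.4 on the linear scale. All 8 listed cardiomyocyte markers were measured, with a summed linear intensity of 89730 to 98469 in 10-week KO, 98705 to 112690 in 10-week WT, 108470 to 109890 in 4-week KO and 114210 to 114980 in 4-week WT hearts. The first principal component over all genes, with 51.9% of the variance, separated the 10-week KO hearts, and the second, with 24.3%, set apart the first of the 10-week WT replicates, at -43.3 where the other arrays lay between -4.18 and 13.9. On that array the summed intensity of the 6 measured liver markers was 4992, against 598 on the other 10-week WT array. Liver sums were 408 and 504 in 10-week KO, 340 and 4789 in 4-week KO, 1160 and 3155 in 4-week WT hearts. The 5 kidney markers summed to 1007 on that array, against 273 on the other 10-week WT array and 151 to 351 on the rest. Without that array the KO minus WT difference at 10 weeks changed sign in 5 of the 40 members and the call changed in 5 others, and these values are given below.

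In 10-week KO hearts 2 members rose and 6 fell. Hk1 and Pfkp, the first a hexokinase and the second the platelet-type phosphofructokinase, rose, while Pfkm, Pfkl, Pgam2 and Eno3 of glycolysis, Pdp1 of pyruvate entry and Fh1 of the acid cycle fell. These 8 of 40 members are 20% of those measured, and 12.1% of all genes were called. A gene is said to be called when its p in limma, adjusted across all genes by the Benjamini-Hochberg method, was under 0.05. The share of members higher was 5%, against 5.19% of all genes, and the share lower was 15%, against 6.89% of all genes. The median log2 difference of the 40 members, KO minus WT, was -0.17, beside 0.0048 over all genes, and 28 of the 40 lay below 0, as did 49.2% of all genes. Many members had bright probe sets, 28 of them with a mean log2 of at least 10, a bound picked with the values known. The 711 genes above that bound had a median of -0.23 and 37.4% of them were called, while the 28 members had a median of -0.17 and 4 of them were called. When the arrays were quantile normalised once more, the median of the 40 members was -0.01 and that of the 711 bright genes -0.06. Without replicate 1 of the 10-week WT hearts 11 members were called, with Pcx, Pdk1, Pdk2 and Suclg2 added and Pdp1 lost. Without either 4-week WT array, or without replicate 1 of the 10-week KO hearts, 5 were called: Hk1, Pfkp, Pgam2, Eno3 and Fh1.

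Pfkp, Pgam2, Eno3 and Fh1 were the 4 members whose knock-out effect differed between the ages, and at 10 weeks each of them was called with each array left out in turn and under each other setting tried. Pfkp, which phosphorylates fructose 6-phosphate, read log2 9.33 and 9.48 in the 10-week KO hearts, against 7.66 and 8.20 in the 10-week WT hearts. Both KO hearts lay above both WT hearts, and the WT pair were further from each other than the KO pair. The difference was 1.48 ± 0.17 (SE, n = 2 per group), 2.79-fold, with an adjusted p of 0.000909 (limma). In 4-week hearts Pfkp read 8.58 and 8.53 in KO, against 8.50 and 8.66 in WT, and the groups overlapped.

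Pgam2, the muscle phosphoglycerate mutase, which moves the phosphate of 3-phosphoglycerate, read 10.78 on both 10-week KO arrays, against 11.48 and 11.54 in 10-week WT hearts. The KO pair lay below the WT pair, by 0.73 ± 0.11 on the log2 scale (adjusted p = 0.00338, limma). In 4-week hearts its values were 11.68 and 11.60 in KO, against 11.59 and 11.62 in WT.

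Eno3, the muscle enolase, catalyses the next step, and read 11.85 and 12.0 in 10-week KO hearts, against 12.94 and 13.01 in 10-week WT hearts. It was 2.07-fold lower in KO, with a log2 difference of -1.05 ± 0.12 (adjusted p = 0.000713, limma). The 4-week values, 13.15 and 13.11 in KO against 13.21 and 13.18 in WT, were also lower on both KO arrays, by 0.06 on average.

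Fh1 encodes fumarase, which hydrates fumarate to malate in the acid cycle. It read 10.66 and 10.91 in 10-week KO hearts, against 12.26 and 11.94 in 10-week WT hearts. The KO pair lay below every other array of the series, and the difference of -1.31 ± 0.15, or 2.48-fold lower, was the largest fall among the 40 members (adjusted p = 0.000704, limma). In 4-week hearts it read 11.97 and 11.92 in KO, against 12.02 and 12.08 in WT.

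The test of the difference itself set the KO minus WT difference at 10 weeks against that at 4 weeks. In that comparison 4 of the 40 members were called, 1 higher and 3 lower, where 2.08% of all genes were, 0.879% higher and 1.2% lower. The difference of differences was 1.51 ± 0.25 for Pfkp (adjusted p = 0.0211), -0.76 ± 0.16 for Pgam2 (0.0484), -0.98 ± 0.17 for Eno3 (0.0229) and -1.20 ± 0.21 for Fh1 (0.0248), in limma with Benjamini-Hochberg adjustment. None of the 4 passed without any one of the 4-week arrays or without replicate 1 of the 10-week KO hearts, while each kept its direction, and without replicate 2 of the 10-week KO hearts only Eno3 and Fh1 passed. Pgam2 also missed the threshold after another quantile normalisation (adjusted p = 0.0987), with arrays centred on their medians (0.0634) and with trend and robust settings (0.0923). Hk1, at 1.24 ± 0.32, did not pass (adjusted p = 0.0937), but did in 4 of the 17 other settings tried for it. Over those 17 it ran from 0.85 to 1.63, the highest being without replicate 2 of the 10-week WT hearts.

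The promoters of these 4 genes are shown because they are the members whose knock-out effect differed between the ages. Each line gives the 250 bases before the gene's start in RefSeq on GRCm38.p6, read 5′ to 3′ in the direction of transcription. Capitals mark matches on either strand to GGGCGG, to the CCAAT box and to the consensus of MEF2, a muscle transcription factor family. The search also covered ACGTG and the longer TNAAGGTCA. Some of these matches lie on the opposite strand and so read CCGCCC or ATTGG.
Pfkp (chr13:6648772-6649021, minus strand): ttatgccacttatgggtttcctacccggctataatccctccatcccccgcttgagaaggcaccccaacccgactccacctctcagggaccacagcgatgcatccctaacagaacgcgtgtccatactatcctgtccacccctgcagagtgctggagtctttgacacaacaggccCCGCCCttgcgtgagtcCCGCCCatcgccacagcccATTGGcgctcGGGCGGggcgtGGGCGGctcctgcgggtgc
Pgam2 (chr11:5803797-5804046, minus strand): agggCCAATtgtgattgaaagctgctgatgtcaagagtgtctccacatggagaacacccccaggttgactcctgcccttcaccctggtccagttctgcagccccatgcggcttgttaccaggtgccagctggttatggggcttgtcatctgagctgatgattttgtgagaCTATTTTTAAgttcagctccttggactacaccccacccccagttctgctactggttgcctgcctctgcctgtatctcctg
Eno3 (chr11:70656926-70657175, plus strand): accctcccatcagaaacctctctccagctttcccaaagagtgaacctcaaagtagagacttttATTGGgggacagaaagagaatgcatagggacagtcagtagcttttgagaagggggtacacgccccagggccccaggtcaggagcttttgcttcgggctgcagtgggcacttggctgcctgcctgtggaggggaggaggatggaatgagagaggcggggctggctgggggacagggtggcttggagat
Fh1 (chr1:175625636-175625885, minus strand): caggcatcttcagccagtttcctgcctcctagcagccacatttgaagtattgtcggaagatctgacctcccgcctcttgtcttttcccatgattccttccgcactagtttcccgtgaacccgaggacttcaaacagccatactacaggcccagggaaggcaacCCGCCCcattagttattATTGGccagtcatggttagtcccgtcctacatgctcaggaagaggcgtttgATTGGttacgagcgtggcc
The Pfkp window held 4 matches to GGGCGG and 1 to CCAAT. The Pgam2 window held 1 MEF2 match, whose last base lies 71 bases before the start, and 1 CCAAT. The Eno3 window held 1 CCAAT, and the Fh1 window 1 GGGCGG and 2 CCAAT. Over 32851 RefSeq windows of this length, 32.7% held GGGCGG, 33.8% CCAAT, 2.92% the MEF2 consensus, 16.6% ACGTG and 1.14% TNAAGGTCA. Of the 45 members 42 had a window, and Pgam2 and Pfkfb1 were the ones with a MEF2 match. The motifs were chosen after the values were seen, they do not overlap one another in these 4 windows, and a match is only a match of letters.

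**Figure D1:**
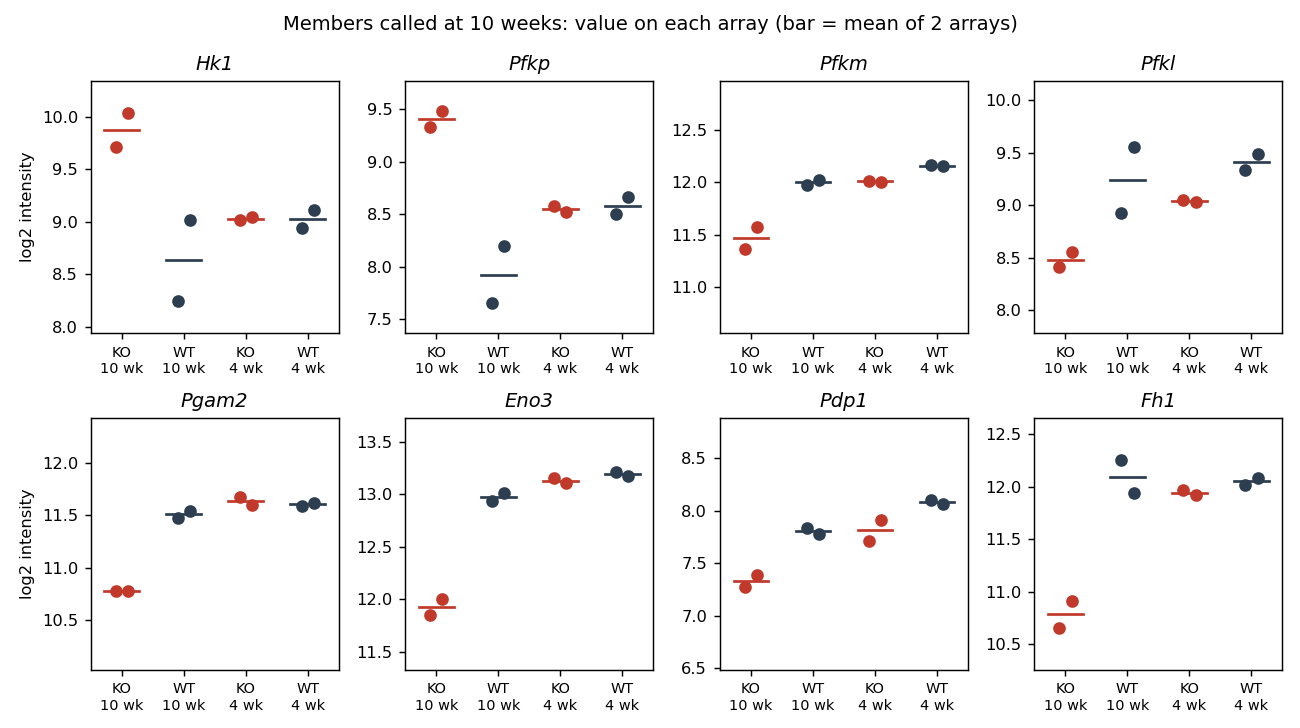
Log2 intensity on each array for the 8 members called at 10 weeks, with points for arrays, bars for the mean of 2 arrays, KO in red and WT in dark blue. Each panel spans the same number of log2 units on its own range. The 10-week KO points of Hk1 and Pfkp sit above all other points of their panels, and those of the other 6 genes sit below them.

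Glucose enters the heart cell through transporters of the Slc2a family, and neither member of it passed the test at 10 weeks. Slc2a1, the transporter GLUT1, read 8.26 and 7.81 in 10-week KO hearts, against 7.61 and 7.39 in 10-week WT hearts. Both KO values were the higher ones, but the difference of 0.53 (95% interval -0.10 to 1.16) had an adjusted p of 0.307. Slc2a4, the insulin-responsive GLUT4, read 10.28 and 10.85 in KO, against 10.43 and 10.68 in WT, and the WT pair lay between the KO pair. Its difference was 0.01 (95% interval -0.40 to 0.43), and -0.11 without replicate 1 of the 10-week WT hearts.

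Hexokinase phosphorylates glucose, and its isoforms differed in what the test called. Hk1 read 9.71 and 10.03 in 10-week KO hearts, against 8.24 and 9.02 in 10-week WT hearts, a rise of 1.24 ± 0.23 or 2.36-fold (adjusted p = 0.0072, limma). The WT pair had an SD of 0.55, and the call was lost without replicate 2 of the 10-week KO hearts (1.08, adjusted p = 0.0617) and with only the 10-week arrays in the fit (0.0535). Hk2, the isoform of adult muscle, read 9.27 and 9.84 in KO, against 9.61 and 10.13 in WT, and the pairs overlapped (difference -0.32, 95% interval -0.80 to 0.17). A further probe set of Hk1 also rose, by 1.28, while a brighter one whose annotation names 6 genes, Hk1 among them, differed by -0.57 ± 0.21 (adjusted p = 0.15, limma over probe sets).

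All 3 phosphofructokinase genes were called at 10 weeks, Pfkp higher as given above and the other 2 lower. Pfkm, the muscle form, read 11.36 and 11.57 in 10-week KO hearts, against 11.98 and 12.02 in 10-week WT hearts, a difference of -0.53 ± 0.12 (adjusted p = 0.0209, limma). Pfkl, the liver form, read 8.41 and 8.56 in KO, against 8.93 and 9.56 in WT, a difference of -0.76 ± 0.19 (adjusted p = 0.0288, limma). Every KO value of both genes lay below every WT value, with the wider spread in the WT pair of Pfkl. These falls were less stable than that of Eno3 or Fh1: Pfkm was not called without replicate 1 of the 10-week KO hearts (-0.42, adjusted p = 0.136) or either 4-week WT array (0.0525), or after another quantile normalisation (-0.28, 0.186). Pfkl was not called without either 10-week KO array, without any one of the 4-week arrays, or without replicate 2 of the 10-week WT hearts (-0.45, adjusted p = 0.0629). Pfkfb2, which makes the activator fructose 2,6-bisphosphate, was at 0.44 ± 0.18 (adjusted p = 0.171).

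The middle and end of glycolysis gave calls for the muscle isoforms Pgam2 and Eno3 and for no other gene. Pgam1, the other mutase, read 8.89 and 8.86 in 10-week KO hearts, against 8.43 and 9.05 in 10-week WT hearts (difference 0.13, 95% interval -0.29 to 0.56). The KO pair lay between the WT pair, and without replicate 1 of the 10-week WT hearts the difference was -0.17. Aldoa, Tpi1 and Pkm, for aldolase, triose phosphate isomerase and pyruvate kinase, were at 0.20, -0.05 and 0.15. Aldoa was at -0.13 without replicate 1 of the 10-week WT hearts and called at 0.52 without replicate 2 (adjusted p = 0.0282, limma). Pgk1, phosphoglycerate kinase, read 11.86 and 11.95 in KO, against 11.51 and 11.66 in WT, which do not overlap, but its 0.32 ± 0.12 did not pass (adjusted p = 0.132). After another quantile normalisation it did, at 0.55 (adjusted p = 0.0154). Gapdh, glyceraldehyde 3-phosphate dehydrogenase, was read on 3 control probe sets, of which the one nearest the 3' end gave 13.84 and 13.97 in 10-week KO hearts, against 13.48 and 13.60 in 10-week WT hearts. The 3 differed by 0.30 to 0.37 on the log2 scale and did not pass (adjusted p between 0.0975 and 0.168, limma over probe sets).

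Lactate dehydrogenase interconverts pyruvate and lactate, with Ldhb the heart form and Ldha the form of glycolytic muscle. Ldhb read 12.02 and 12.43 in 10-week KO hearts, against 12.53 and 12.62 in 10-week WT hearts. Both KO values were lower, and the difference of -0.35 (95% interval -0.68 to -0.02) did not pass over all genes (adjusted p = 0.178). Ldha read 12.09 and 11.83 in KO, against 11.97 and 11.98 in WT, a difference of -0.01 (95% interval -0.30 to 0.28), which was 0.21 after another quantile normalisation.

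**Figure D2:**
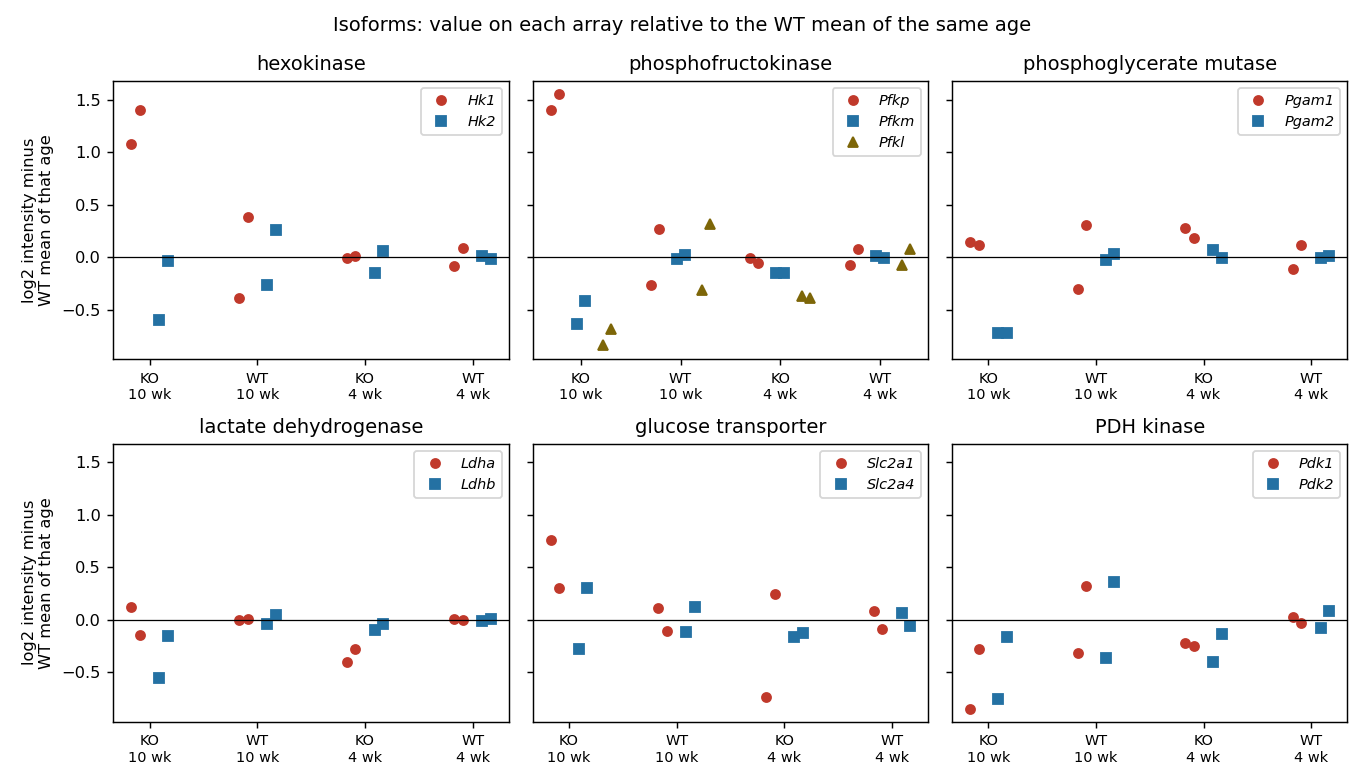
Log2 intensity on each array minus the WT mean of the same age, for isoforms of 6 steps, each marker being 1 array and the line at 0 the WT mean. In 10-week KO hearts Hk1 and Pfkp lie above 1, while Pfkm, Pfkl and Pgam2 lie below 0. Ldha and Slc2a4 scatter on both sides of 0.

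Of the 10 measured genes of pyruvate entry, 1 fell at 10 weeks and none rose. That is 10% of them, where 6.89% of all genes fell. Pdp1, a phosphatase that switches pyruvate dehydrogenase on, read 7.27 and 7.38 in 10-week KO hearts, against 7.83 and 7.78 in 10-week WT hearts. The difference was -0.48 ± 0.12 (adjusted p = 0.0342, limma), and it was not called without either 4-week WT array, without either 10-week KO array or without replicate 1 of the 10-week WT hearts (-0.45, adjusted p = 0.0902), nor with trend and robust settings (0.0599). Its further probe set gave a larger fall of 1.33 ± 0.20, with 5.0 and 4.75 in KO against 6.0 and 6.42 in WT. At 4 weeks that further set was at -0.68 ± 0.20 and was not called, with 5.48 and 6.05 in KO against 6.39 and 6.50 in WT.

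Pdk1 and Pdk2, kinases that switch pyruvate dehydrogenase off, were lower on average in 10-week KO hearts but overlapped with WT. Pdk1 read 7.86 and 8.43 in KO, against 8.39 and 9.03 in WT (difference -0.56 ± 0.23, adjusted p = 0.167). Further probe sets of Pdk1 were at 0.22 and 0.17, and the dimmest at -0.20. Pdk2 read 8.81 and 9.40 in KO, against 9.20 and 9.93 in WT (-0.46 ± 0.25, adjusted p = 0.331). In both genes replicate 1 was the lower of its pair in KO and in WT. Without replicate 1 of the 10-week WT hearts both passed, at -0.88 (adjusted p = 0.0252) for Pdk1 and -0.82 (0.0487) for Pdk2.

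No subunit of pyruvate dehydrogenase itself was called on its brightest probe set, while a further set of Dlat fell by 1.40. Pdha1 and Pdhb of the first component were at 0.11 and 0.16, Dlat of the second at -0.19, the binding protein Pdhx at -0.01 and Dld, shared with the acid cycle, at -0.10. The 95% intervals of these 5 reached from -0.56 (Dld) to 0.52 (Pdha1). Without replicate 1 of the 10-week WT hearts Pdha1 was at -0.15, Dlat at -0.32 and Dld at -0.26. Mpc1, of the carrier that brings pyruvate into mitochondria, was at -0.04 (95% interval -0.31 to 0.23). Pcx encodes pyruvate carboxylase, which refills the cycle with oxaloacetate. On its array control probe sets the 10-week difference ran from -0.36 to -0.13, and none passed (adjusted p between 0.147 and 0.70, limma over probe sets). On the probe set used for the gene, Pcx read 5.86 and 6.07 in 10-week KO hearts, against 6.41 and 6.79 in 10-week WT hearts. Its difference of -0.64 ± 0.18 missed the threshold (adjusted p = 0.053, limma), and it passed when genes dimmer than the median were left out (0.0418), after another quantile normalisation (0.0265), with trend and robust settings (0.0394), without either 4-week KO array (0.0467) and without replicate 1 of the 10-week WT hearts (0.0245).

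In the acid cycle Fh1 was the 1 call among 13 genes at 10 weeks, 7.69% of them. Of all genes 6.89% fell, and of the 711 bright ones, to which all 13 belong, 28.1% fell. Of the 13 differences 12 were below 0. That number was 13 without replicate 2 of the 10-week KO hearts or replicate 1 of the 10-week WT hearts, 9 without the other array of either pair, and 10 after another quantile normalisation. The median of the 13 was -0.25, beside 0.0048 over all genes and -0.23 over the bright ones. After another quantile normalisation it was -0.10, beside -0.06 over the bright ones. The median of the 13 was -0.45 without replicate 2 of the 10-week KO hearts or replicate 1 of the 10-week WT hearts. The medians of glycolysis and pyruvate entry were 0.01 and -0.14, and 0.20 and 0.02 after that normalisation. With the arrays centred on their medians glycolysis, pyruvate entry and the acid cycle were at -0.004, -0.16 and -0.26. In 8 of the 13 genes both KO arrays lay below both WT arrays, as they did in 23.5% of all genes and in 47.5% of the 711 bright ones.

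Several acid cycle genes lay just outside the threshold at 10 weeks. Suclg1, the subunit common to both succinyl-CoA ligases, read 10.69 and 11.07 in 10-week KO hearts, against 11.32 and 11.44 in 10-week WT hearts (difference -0.50 ± 0.15, adjusted p = 0.0577). Suclg2, the GTP-forming partner, was at -0.57 ± 0.17 (0.0665) and passed without replicate 1 of the 10-week WT hearts (-0.73, 0.0387), and Sucla2, the ATP-forming partner, at -0.20 ± 0.23 with overlapping pairs. The isocitrate dehydrogenases Idh2, Idh3g and Idh3b were at -0.41 (adjusted p = 0.0689), -0.49 (0.0745) and -0.46 (0.108), and Idh3a at -0.19 (0.382). Replicate 1 of the 10-week KO hearts was the lower of its pair in each of these 7 genes, and in the other acid cycle genes too. The median deviation of the 40 members from their means over the 8 arrays was -0.34 on that array, against -0.09 on replicate 2.

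None of the other cycle genes was called on its brightest probe set. Citrate synthase, Cs, which starts the cycle, read 11.95 and 12.21 in 10-week KO hearts, against 11.59 and 12.32 in 10-week WT hearts (difference 0.12, 95% interval -0.35 to 0.59), and was the 1 gene of the 13 above 0. It was at -0.24 without replicate 1 of the 10-week WT hearts. Ogdh and Dlst of the 2-oxoglutarate dehydrogenase complex were at -0.04 and -0.03. The malate dehydrogenases Mdh1, of the cytosol, and Mdh2, of mitochondria, were at -0.14 and -0.25.

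**Figure D3:**
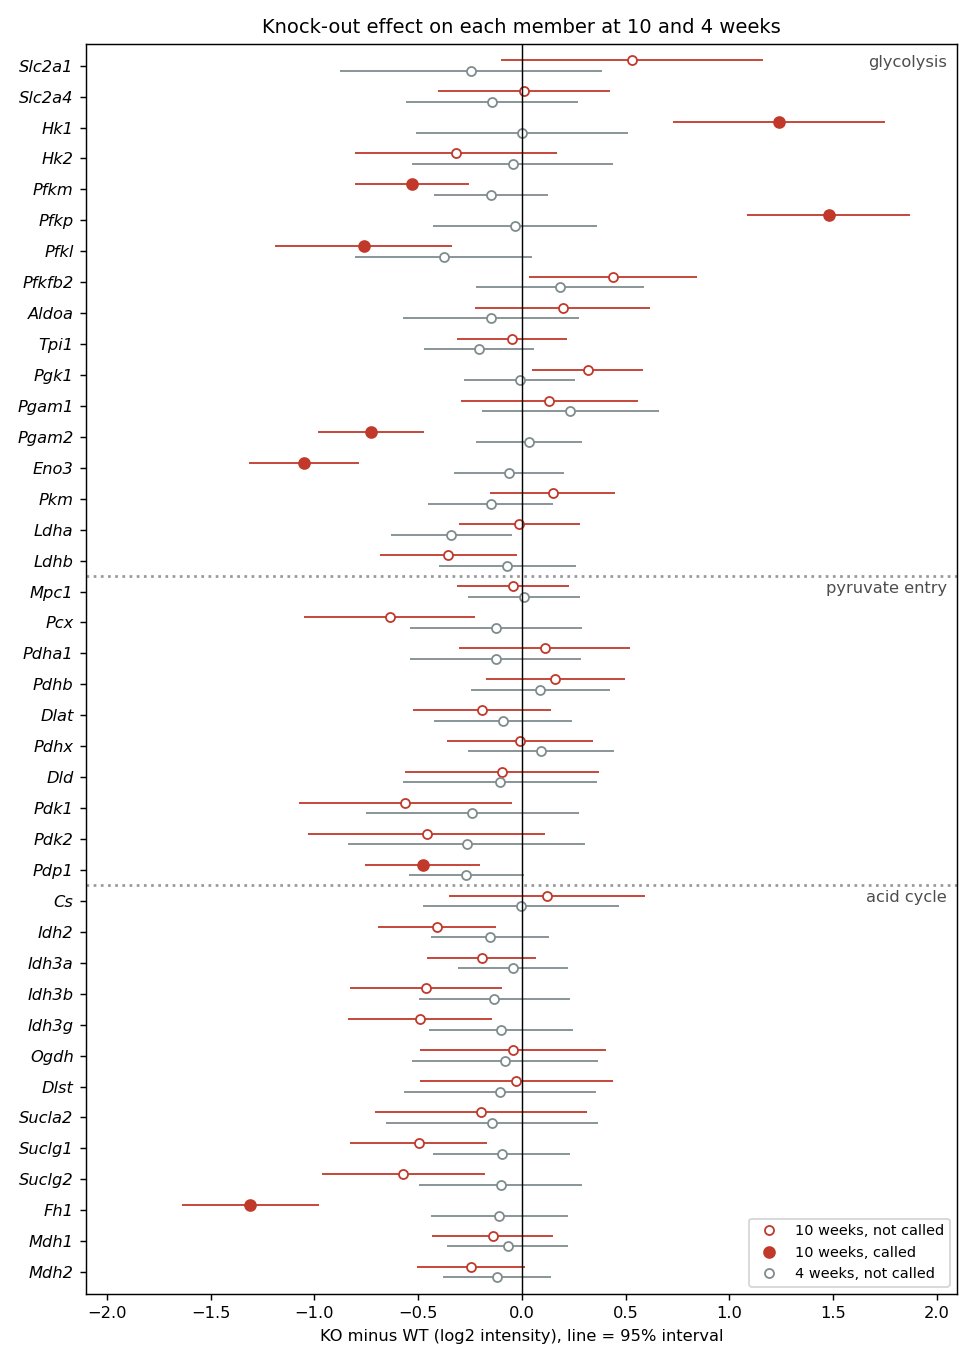
KO minus WT log2 difference of each of the 40 members with its 95% interval, at 10 weeks (red) and 4 weeks (grey), in pathway order. Filled points passed the test: Hk1 and Pfkp lie right of 0 at 10 weeks and 6 others left of it, and no grey point is filled. In the acid cycle all grey points and 12 of 13 red points lie left of 0.

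Of the 40 members 27 had a further probe set, and these did not always follow the brightest one used above. Tested singly, 4 of the 92 member probe sets were higher and 15 lower at 10 weeks, where 3.7% and 4.38% of all probe sets were, 8.08% in all. The genes called on a further, dimmer probe set but not on the brightest were Dlat, Idh3a, Idh3b, Ogdh, Mdh1 and Mdh2. For Dlat the dimmer set read 7.37 and 7.90 in 10-week KO hearts, against 8.77 and 9.30 in 10-week WT hearts (-1.40 ± 0.22), while the other 2 gave -0.19 and -0.26. For Idh3a, 2 of 4 sets gave -0.80 and -0.77, the brightest -0.19 and the dimmest -0.02. For Mdh1, 1 of 5 sets gave -1.0 ± 0.13, with 5.26 and 5.02 in KO against 6.06 and 6.22 in WT, and the other 4 lay between -0.15 and -0.01. In 10 genes, Pfkl and Pdk1 among them, a further set had the opposite sign. Pgam2, Eno3, Fh1, Pfkm, Hk2, Ldha and Suclg1 were among the 13 members with 1 probe set, so no second set could be put beside them.

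**Figure D4:**
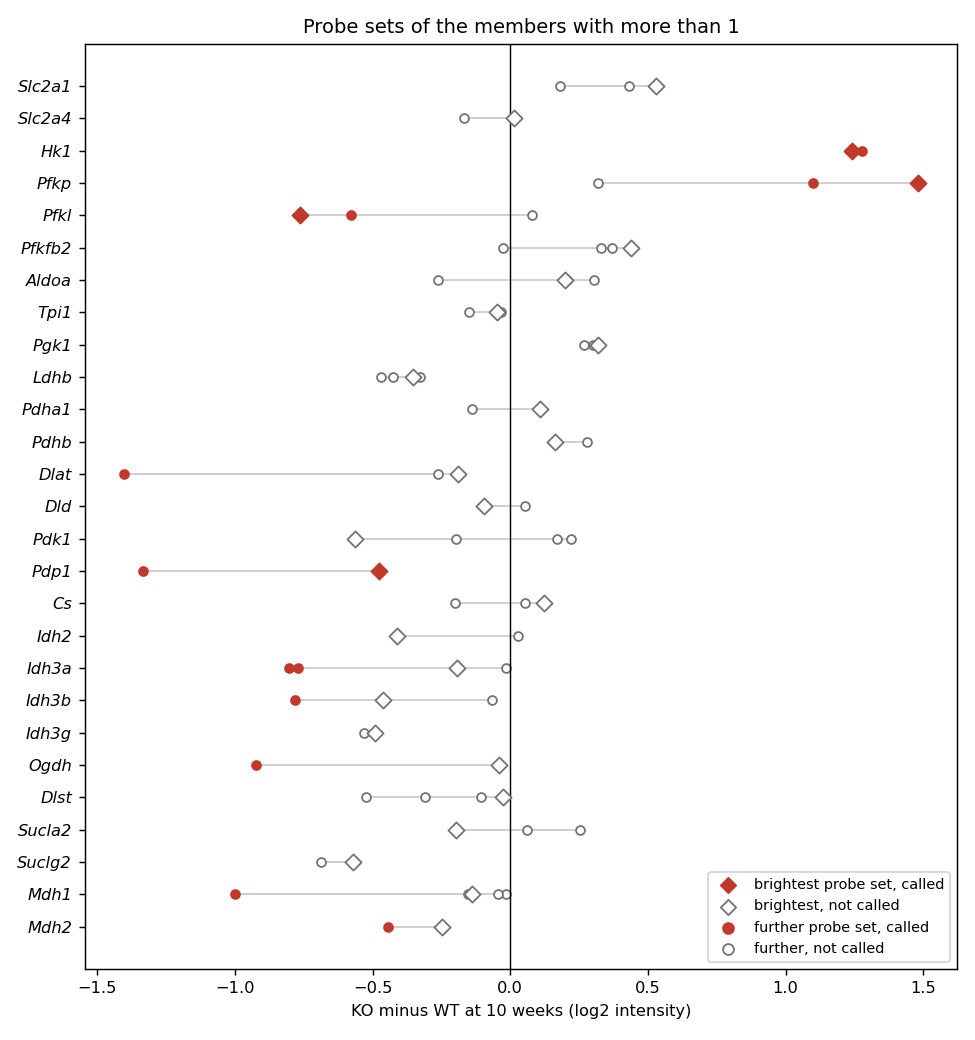
KO minus WT log2 difference at 10 weeks on every probe set of the 27 members with more than 1, with diamonds for the brightest set, circles for further sets and filled symbols for those that passed the test over all probe sets. The filled circles of Dlat, Pdp1, Idh3a, Ogdh and Mdh1 lie well left of their diamonds. Those of Hk1 and Pfkp lie right of 0 with their diamonds.

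Other genes of the same pathways were counted from further lists. Of 16 measured genes for other acid cycle steps, among them succinate dehydrogenase and carriers of its intermediates, 7 fell at 10 weeks and none rose, with a median of -0.39. That is 43.8% of the list lower, where 6.89% of all genes were, and the median of all genes was 0.0048. Of the 711 bright genes 28.1% fell, with a median of -0.23, and how many of these 16 genes are that bright was not counted. Sdhc, a membrane anchor of succinate dehydrogenase, read 9.53 and 9.95 in 10-week KO hearts, against 10.49 and 10.63 in 10-week WT hearts (-0.81 ± 0.17). Slc25a12, an aspartate-glutamate carrier of the malate shuttle, fell by 0.79 and Sdhb, the iron-sulfur subunit of succinate dehydrogenase, by 0.75. Of 17 other glycolysis genes 1 rose and 3 fell, 5.88% and 17.6% of the list beside 5.19% and 6.89% of all genes. Tigar, a fructose 2,6-bisphosphatase, rose by 0.67, the transporter Slc2a12 fell by 1.01 and the muscle fructose 1,6-bisphosphatase Fbp2 fell by 0.85.

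Among 12 other genes of pyruvate dehydrogenase control and pyruvate use, 3 rose and 2 fell at 10 weeks. That is 25% and 16.7% of the list, beside 5.19% and 6.89% of all genes. Me2, a mitochondrial malic enzyme that makes pyruvate from malate, read 6.85 and 6.90 in 10-week KO hearts, against 5.73 and 5.93 in 10-week WT hearts (1.05 ± 0.14). Pck2, the mitochondrial phosphoenolpyruvate carboxykinase, rose by 0.93 and the kinase Pdk3 by 0.82. Pdk4, the kinase that fasting and fatty acids induce in heart, was looked up after the values were seen. It read 12.08 and 11.10 in 10-week KO hearts, against 10.20 and 11.71 in 10-week WT hearts, and 12.12 and 10.73 in 4-week KO hearts, against 10.36 and 11.21 in 4-week WT hearts. At both ages its values within each pair lay further apart than the KO and WT means did (difference 0.63 ± 0.57 at 10 weeks, adjusted p = 0.598, limma). None of the 6 pentose phosphate enzymes was called, the lowest adjusted p being 0.128 for Pgls, 6-phosphogluconolactonase, at -0.42.

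Markers of other cells moved with the 10-week comparison. Of 6 fibroblast markers 5 rose, with a summed linear intensity of 17952 to 18486 in 10-week KO hearts, against 4846 to 6912 in 10-week WT hearts. Of 6 macrophage markers 4 rose, with sums of 5070 to 5924 in KO, against 3364 to 3371 in WT. Of 8 cardiomyocyte markers 3 fell, and the 8 differences ran from -1.27 to 0.41, with 5 below 0 and 3 above. Among all genes 5.19% rose and 6.89% fell. In whole hearts, fewer cells of a type and less RNA per cell cannot be told apart, and the part of cell make-up in the rises of Hk1 and Pfkp and in the falls of the other 6 members was not tested. At 4 weeks the fibroblast sums were 10514 to 11446 in KO and 9021 to 10668 in WT hearts, and no marker of these 3 lists was called.

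At 4 weeks no member passed the test, and 0.0275% of all genes did, 5 genes in all. On the probe set used for each gene, 1 member, Ldha, had an unadjusted p under 0.05 in limma, and 679 genes had one. Ldha read 11.88 and 12.0 in 4-week KO hearts, against 12.29 and 12.28 in 4-week WT hearts (difference -0.34 ± 0.13, adjusted p = 0.998). The 40 differences ran from -0.38 for Pfkl to 0.23 for Pgam1, with a median of -0.10 beside 0.012 over all genes.

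The small differences at 4 weeks were mostly on 1 side of 0. Of the 40 members 33 lay below 0, as did 46.6% of all genes, and in 24 of them both KO arrays lay below both WT arrays, as in 17.5% of all genes and 37.6% of the 711 bright ones. All 13 acid cycle genes lay below 0, between -0.15 for Idh2 and -0.01 for Cs. The genes on the other side with pairs that did not overlap were Pgam1, Pdhb and Pdhx, 3 in all, while 19.4% of all genes had both KO arrays above. The atrial markers had summed intensities of 13384 to 28379 in 4-week KO hearts, against 6479 to 9480 in 4-week WT hearts, and their part in these differences was not tested.

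From 4 to 10 weeks 8 members changed in KO hearts and none in WT hearts. In KO, where 10.5% of all genes were called, 3.42% higher and 7.07% lower, Hk1 rose by 0.84 and Pfkp by 0.86, and Pfkm, Pgam2, Eno3, Pdp1, Suclg1 and Fh1 fell, by 0.48 (Pdp1) to 1.20 (Eno3). The count was 3 without replicate 1 of the 4-week or of the 10-week KO hearts, 4 without replicate 2 of the 4-week KO hearts, 5 without either 4-week WT array and 13 without either 10-week WT array. This comparison uses the same 10-week KO arrays as the one with WT, so its values are given side by side with those and not as separate support. In WT, where 0.115% of all genes were called, 10 of the 40 members had an unadjusted p under 0.05 in limma. So did 3285 of the 18193 genes. The lowest adjusted p of a member was 0.192 for Pfkp, at -0.66 ± 0.17. For Pfkp, 10-week hearts were above 4-week hearts by 0.86 in KO, while in WT the difference was -0.66 and was not called. For Pgam2, Eno3 and Fh1 the WT differences of 10 minus 4 weeks were -0.10, -0.22 and 0.04, beside -0.86, -1.20 and -1.16 in KO. The median of the members was -0.29 in KO and -0.22 in WT, beside 0.0448 and 0.0466 over all genes, and without replicate 2 of the 10-week WT hearts 7 members were lower in 10-week WT, where 16.2% of all genes were called.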

How the data were processed

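Total RNA of 8 female mouse hearts was hybridised to Affymetrix arrays, 1 per heart. The deposited values are probe set intensities on the linear scale, made by the authors with GCOS 1.3 and RMA (no version given), per the submitters' processing notes. RMA corrects background, equalises the arrays' distributions and summarises probes across arrays, which tends to shrink large differences. Here log2 was taken, without a pseudocount, the lowest intensity being 4.90.

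Groups came from the labels, 2 mice each. Control probe sets (64) were left out, 34945 probe sets named 1 gene, 932 several and 9160 none, and each of 18193 genes took its brightest probe set by mean log2. A model with a mean for each group was fitted in limma 3.58.1 under R 4.3.3, over the 8 arrays together, with eBayes and two-sided tests, with Benjamini-Hochberg adjustment over all genes. There were 4 residual and 9.33 total degrees of freedom, and the median SE of a difference was 0.145. Probe sets were also fitted singly over 45037. The script was tested on simulated data. The members, lists, markers, tests and alternatives were chosen with earlier results of these data known. Members could all be named, with array values for those called and for isoforms, and up to 3 called genes per further list with the largest difference, or else the 1 of lowest p. 1 result, on the targeted gene, is not reported here. Promoters are RefSeq sequence on GRCm38.p6.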

Additional observations from a re-analysis of the deposited data

Results flagged for a closer look

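For 4 members the knock-out effect at 10 weeks differed from that at 4 weeks in a test of the difference itself (limma, Benjamini-Hochberg over all genes). The KO minus WT log2 difference was higher at 10 weeks by 1.51 for Pfkp (adjusted p = 0.0211). It was more negative at 10 weeks for Pgam2 (-0.76, adjusted p = 0.0484), Eno3 (-0.98, 0.0229) and Fh1 (-1.20, 0.0248). At 10 weeks both KO hearts lay beyond both WT hearts in all 4 genes, while at 4 weeks the pairs of Pfkp and Pgam2 overlapped. The 4 genes were picked by a test on these same arrays, so this describes them and is not further support. Among all genes at 10 weeks, 23.7% had both KO arrays above both WT arrays and 23.5% had both below. With 2 hearts per group, no search for outlying hearts was made.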

How the results depend on the processing

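At 10 weeks 8 members were called, and between 5 and 11 with each array left out in turn. The count was 5 without either 4-week WT array or without replicate 1 of the 10-week KO hearts, and 11 without replicate 1 of the 10-week WT hearts, 7 of which were among the 8. It was 4 with only the 10-week arrays in the fit. For the difference between ages the count of 4 ran from 0 to 6 with an array left out, for 10 minus 4 weeks in KO the 8 from 3 to 13, and in WT the 0 from 0 to 7. At 4 weeks it was 0 in each setting. The member median ran from -0.28 to -0.03 at 10 weeks and from -0.13 to -0.08 at 4 weeks with an array left out. The replicate numbers are only labels here. Deviations of same-numbered KO and WT hearts from their group means correlated over genes at 0.302 at 4 weeks and 0.23 at 10 weeks. With 2 arrays per group, replicate 2 deviates as the mirror of replicate 1, so each age gives 1 correlation. With the replicate block 15 members were called at 10 weeks, 2 higher and 13 lower, 18 for 10 minus 4 weeks in KO and 5 for the difference between ages. The block changed no call of the KO minus WT comparison at 4 weeks. Except where stated, counts under the other settings, here and above, are given without the share of all genes called in the same setting. They are not read as a result about the members.

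Values near 0 changed sign. At 10 weeks Slc2a4 was at -0.077 with the mean of its probe sets, -0.004 with arrays centred on their medians, and from -0.27 to 0.30 with an array left out. Pgam1 ran from -0.17 to 0.44 and Ldha from -0.14 to 0.12 with an array left out, and Ldha was at 0.21 after another quantile normalisation. At 4 weeks Hk1 was at -0.022 with centred arrays and from -0.086 to 0.087 with an array left out, Pfkp at 0.011 after quantile normalisation and from -0.11 to 0.047, and Pgam2 from -0.0056 to 0.072. The causes were not tested.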

Other observations

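Glycogen stores glucose in heart muscle, and of 11 measured glycogen genes 2 rose and 1 fell in 10-week KO hearts, with a median of 0.35. That is 18.2% higher and 9.09% lower, where 5.19% and 6.89% of all genes were. Gbe1, the branching enzyme, read log2 8.10 and 8.35 in 10-week KO hearts, against 7.23 and 7.55 in 10-week WT hearts (0.84 ± 0.16, adjusted p = 0.0083, limma). Ugp2, which makes the UDP-glucose that glycogen synthase uses, rose by 0.63 and read 12.02 and 12.38 in KO, against 11.67 and 11.47 in WT. Its 4-week difference was as large, 0.65, with 11.92 and 11.85 in KO against 11.26 and 11.20 in WT, but did not pass there (adjusted p = 0.641). Phkg1, the muscle catalytic subunit of phosphorylase kinase, fell by 0.95, at 3.79 and 3.76 in KO against 4.58 and 4.88 in WT, which is near the lowest intensities of these arrays. At 4 weeks none of the 11 was called.

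Of 12 transcription regulators of glucose metabolism 2 rose and 2 fell at 10 weeks. That is 16.7% of the list each way, where 5.19% of all genes rose and 6.89% fell. Hif1a, a subunit of the hypoxia-inducible factor that is controlled mostly through its protein, read 9.84 and 9.95 in 10-week KO hearts, against 7.55 and 8.18 in 10-week WT hearts. The rise of 2.03 ± 0.19 was 4.09-fold (adjusted p = 0.000311, limma). Myc, a growth regulator, rose by 1.33 ± 0.14 and read 6.75 and 7.03 in KO, against 5.45 and 5.66 in WT. Klf15, a factor that promotes Slc2a4 expression in muscle cells, fell by 1.06 ± 0.20 and read 7.71 and 8.01 in KO, against 9.21 and 8.62 in WT, while Slc2a4 itself was at 0.01. These 3 genes do not measure the activity of the factors.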
